A study of Mus musculus with 6 samples.

Results

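The antioxidant, glutathione and NRF2 genes described here are 37 genes, listed by symbol for their known roles, among 24028 genes in the deposited count table. All 37 were in the table, and 35 had enough counts to be tested. The cells were 1 clone of C2C12, a mouse line of immortal muscle precursors (myoblasts), with a codon-altered transgene called MMH that doxycycline switches on, kept under puromycin selection. MMH is a chimera of mouse Dux through its homeodomains, which bind DNA, and the C-terminus of human DUX4, the transcription factor whose misexpression underlies facioscapulohumeral muscular dystrophy. Polyadenylated RNA was sequenced from 3 cultures with 2 µg/ml doxycycline (induced) and from 3 cultures of the same line without doxycycline (uninduced). The duration of doxycycline is uncertain, since one source states 18 h and another 36 h. Both groups carry the transgene, and cells with doxycycline but no transgene were not analysed here, so drug and transgene cannot be told apart. Because all cultures come from 1 clone, p-values measure the spread between cultures of that clone and not between clones.

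NRF2, encoded by Nfe2l2, is a transcription factor that pairs with small MAF proteins on antioxidant response elements and switches on genes for glutathione synthesis, thioredoxin recycling, quinone reduction and haem breakdown. In unstressed cells the KEAP1 adaptor hands NRF2 to a CUL3 ubiquitin ligase for degradation, so that NRF2 activity is set largely at the protein level, which RNA counts do not measure. Glutathione and thioredoxin carry the electrons with which peroxidases remove hydrogen peroxide and lipid peroxides, and human muscle cells that express DUX4 have been described as sensitive to oxidative stress.

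The antioxidant response element was searched as the letters TGACNNNGC on both strands, in RefSeq windows (GRCm38.p6) that run from 250 bases before to 50 bases after a transcript start. Of the 31 members with a window, 8 held a match: Gclm, Mgst1, Mt2, Nfe2l2, Prdx1, Sod1, Srxn1 and Txnrd1. Over all 32851 windows 12.4% held a match, and over the 43 windows of members 18.6%. Of these 8 genes, Nfe2l2, Sod1, Mgst1, Txnrd1 and Prdx1 were called higher in induced cells and Gclm, Mt2 and Srxn1 lower, with values below. Of all tested members 34.3% were called higher and 57.1% lower, and of all tested genes 41.3% and 41.2%. Scaled by library size alone, Sod1, Mgst1, Txnrd1 and Prdx1 were below 0. Whether a match goes with a rise was not tested. The stretches around the match are shown for 5 of the 8 genes because these 5 include some that rose and 1 that fell. Capitals mark the match, and each sequence is read 5′ to 3′ on the strand of its gene.
Nfe2l2 (chr2:75704879-75704913, minus strand): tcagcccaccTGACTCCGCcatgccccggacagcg
Sod1 (chr16:90220690-90220730, plus strand): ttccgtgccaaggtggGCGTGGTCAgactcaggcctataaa
Txnrd1 (chr10:82859098-82859138, plus strand): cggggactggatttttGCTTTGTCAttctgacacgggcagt
Prdx1 (chr4:116685450-116685490, plus strand): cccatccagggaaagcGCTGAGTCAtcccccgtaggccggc
Gclm (chr3:122245407-122245447, plus strand): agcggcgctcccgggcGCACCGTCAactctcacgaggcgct
The Txnrd1 match lies before 1 of that gene's 3 listed starts, and the Nfe2l2 stretch lies in an exon of E030042O20Rik on the other strand. A match is a run of letters and not a measured binding site, and the window says nothing of elements farther away.

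The libraries held 21503384 to 24489531 counts each. Levels are counts-per-million values (CPM) on library sizes scaled by TMM, a method that sets the middle of the genes to no change, so directions are relative to most genes. The cleavage-stage genes Zscan4c, Zscan4d, Zscan4f and Usp17le, known Dux targets, summed to 177000 to 181000 CPM in induced and 734 to 759 CPM in uninduced libraries. Members took 0.45% ± 0.00541 of all counts in induced libraries and 0.985% ± 0.0432 in uninduced libraries (SD, n = 3 each), whereas their summed TMM-scaled level was 6290 ± 105 CPM in induced and 7060 ± 304 CPM in uninduced cells. When CPM were scaled by library size alone, the median log2 fold change of all tested genes was -0.97 in place of -0.01, and rises smaller than that shift came out below 0. The 5 tested myoblast markers (Myod1, Myf5, Cdh15, Des and Myog) were all called lower, while Pax7 was near 0 in both groups. The 6 markers summed to 821 to 856 CPM in induced and 1620 to 1630 CPM in uninduced libraries. Macrophage and leukocyte markers summed to at most 1.78 CPM, epithelial ones to at most 0.647 CPM and hepatocyte ones to at most 0.582 CPM in any library. Adipocyte markers, led by Fabp4, summed to 6.83 to 8.02 CPM in induced and 0.389 to 0.582 CPM in uninduced libraries, and neuronal markers, led by Tubb3, to 101 to 110 CPM in induced and 57.1 to 61.5 CPM in uninduced libraries. Endothelial markers summed to 2.05 to 2.41 CPM in induced and 0.0647 to 0.459 CPM in uninduced libraries, and erythroid ones to at most 0.0647 CPM. The part of these differences in the results was not tested. In bulk samples, fewer cells of a type and less RNA per cell cannot be told apart.

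Transcripts of this defence system did not move as a block. Nfe2l2 and the haem-degrading enzyme gene Hmox1 rose about 3-fold and Gss and Nqo1 about 2-fold, while the metallothionein genes Mt1 and Mt2, Gsr, Prdx3 and Gclm fell by more than 2-fold. Of the 35 tested members, 12 were called higher, 20 lower and 3 not called by edgeR's quasi-likelihood test at a Benjamini-Hochberg adjusted p of 0.05. Over all 12969 genes tested, 82.5% were called, 41.3% higher and 41.2% lower, against 34.3% higher and 57.1% lower among tested members. Members are abundant genes, with a median level of 78.9 CPM against 22.9 CPM over all tested genes. The median log2 fold change of members was -0.31, against -0.01 over all tested genes. At least 2-fold rises were called for 3 members and at least 2-fold falls for 5, beside 18% and 12.7% of all tested genes. Induced and uninduced CPM ranges were separate for 32 tested members, beside 83.1% of all tested genes, and 16 tested members differed by less than 1.5-fold. The 3 that rose at least 2-fold, Nfe2l2, Hmox1 and Gss, were also the only members called higher under library-size scaling. Their log2 fold changes were then smaller, at 0.63, 0.54 and 0.16. That scaling called 30 members lower, and 1977 of all genes higher and 9949 lower. Upper-quartile scaling called 10 members higher and 22 lower.

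**Figure D1:**
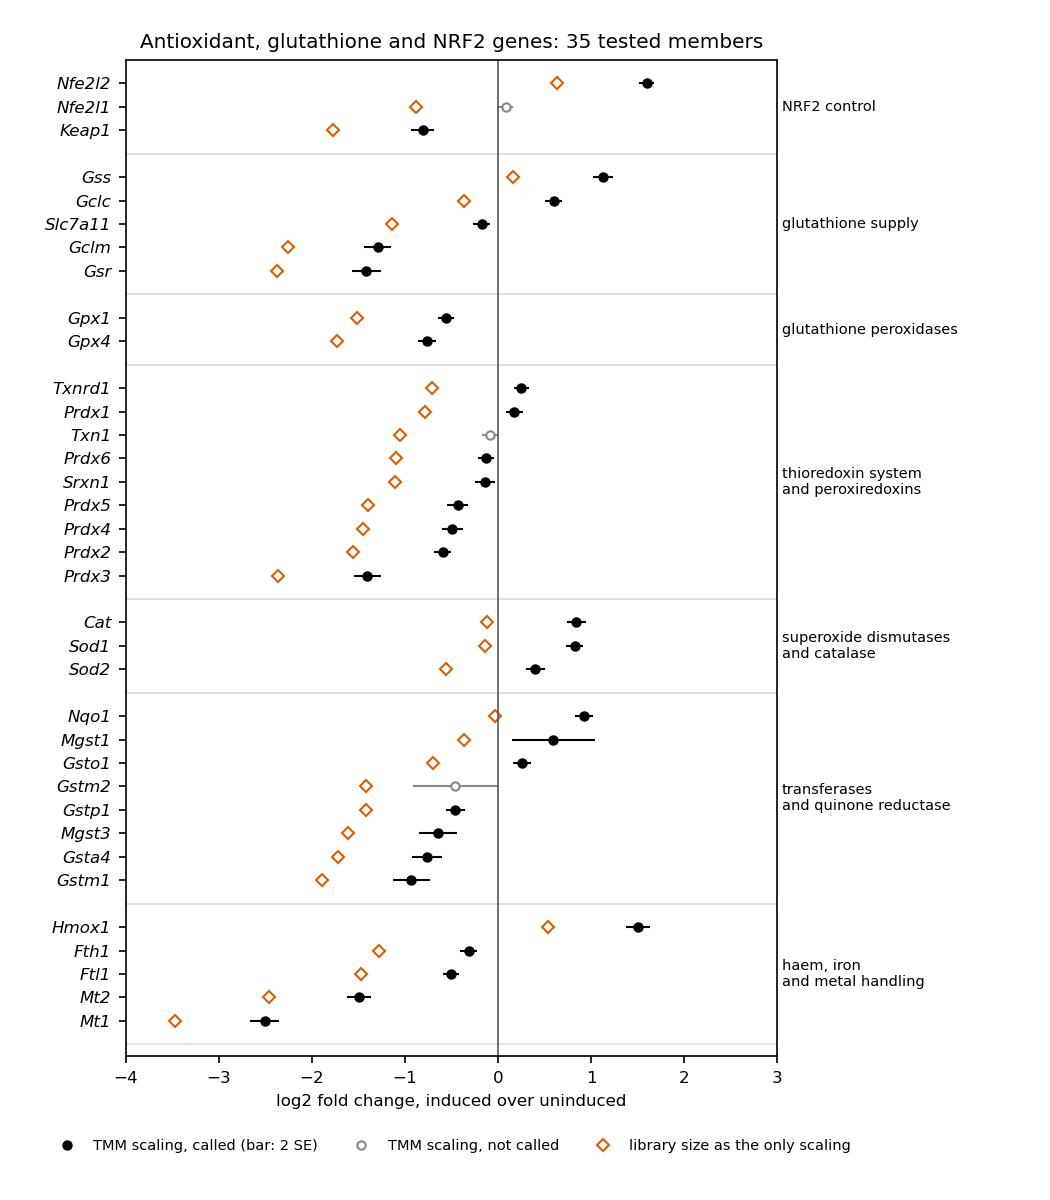
Log2 fold change (x axis, induced over uninduced) of the 35 tested members, grouped by role. Black circles are called and open grey circles not called with TMM scaling, bars span 2 SE either side, and orange diamonds give the value under library-size scaling. Nfe2l2, Hmox1 and Gss lie right of 0 with both scalings, Gss at only 0.16 under library-size scaling. Mt1 lies farthest left, at -2.51 with TMM scaling.

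**Figure D2:**
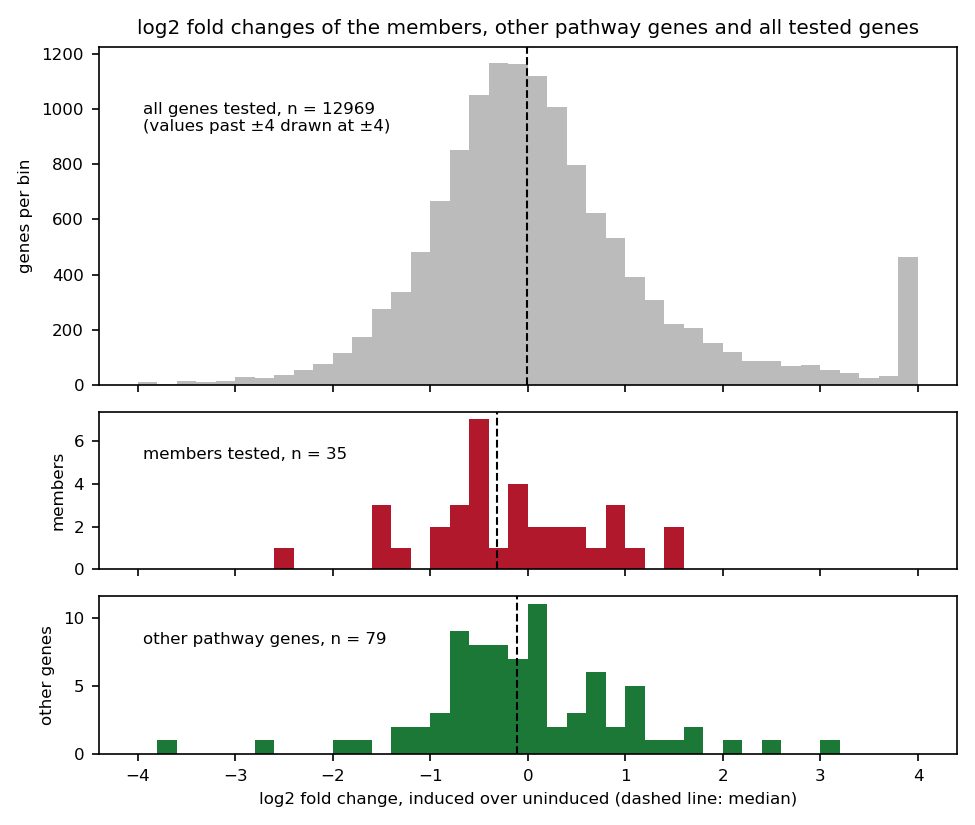
Histograms of log2 fold changes (x axis, induced over uninduced) of all 12969 tested genes, the 35 tested members and 79 other tested genes of the pathway, with the number of genes in each bin of 0.2 on the y axes and values beyond 4 either way placed in the outermost bins. Dashed lines are medians, at -0.01 for all genes, -0.31 for members and -0.11 for the other pathway genes.

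Among the regulators, Nfe2l2 (chr2:75675513-75704663) had 311, 309 and 304 CPM in induced cells and 102, 102 and 102 CPM in uninduced cells. The induced libraries lay far above the uninduced ones with almost no spread within a group. Its log2 fold change was 1.60 ± 0.04 (SE), with an edgeR adjusted p of 4.4e-21, and it stayed between 0.63 and 1.62 in every alternative tried. Keap1 (chr9:21229730-21239332), which encodes the adaptor that marks NRF2 for degradation, had 21.1, 21.2 and 21.8 CPM in induced and 36.7, 38.9 and 36.9 CPM in uninduced cells. All 3 induced libraries were below all 3 uninduced ones, a log2 fold change of -0.81 ± 0.06 (SE), with an edgeR adjusted p of 1.7e-11. Exons of Gm16754 on the other strand cover 10.9% of the annotated Keap1 exon bases, and reads of both may have been counted together. Nfe2l1 encodes the related factor NRF1, which is processed at the endoplasmic reticulum and drives proteasome genes. It had 267, 261 and 261 CPM in induced and 261, 248 and 237 CPM in uninduced cells. These groups overlapped, and Nfe2l1 was not called at 0.08 ± 0.04 (SE), with an edgeR adjusted p of 0.08. Its call and direction depended on the setting. It was called higher at 0.12 without uninduced replicate 1 (edgeR adjusted p = 0.011), and also with RLE scaling (edgeR adjusted p = 0.034), a stricter low-count filter (edgeR adjusted p = 0.023) and DESeq2 (adjusted p = 0.049). It was below 0 with upper-quartile scaling at -0.06 (edgeR adjusted p = 0.16) and was called lower under library-size scaling at -0.88. The lowest adjusted p over the alternatives, 6.2e-16, belongs to that call in the other direction, and the highest was 1.0. Per kilobase of annotated exon, Nfe2l2 was at 81.1 ± 0.952 CPM in induced and 26.8 ± 0.0548 CPM in uninduced cells, and Nfe2l1 at 48.3 ± 0.661 CPM in induced and 45.7 ± 2.24 CPM in uninduced cells (SD, n = 3 each). Nfe2l2 was therefore above Nfe2l1 in induced cells and below it in uninduced cells on this scale.

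**Figure D3:**
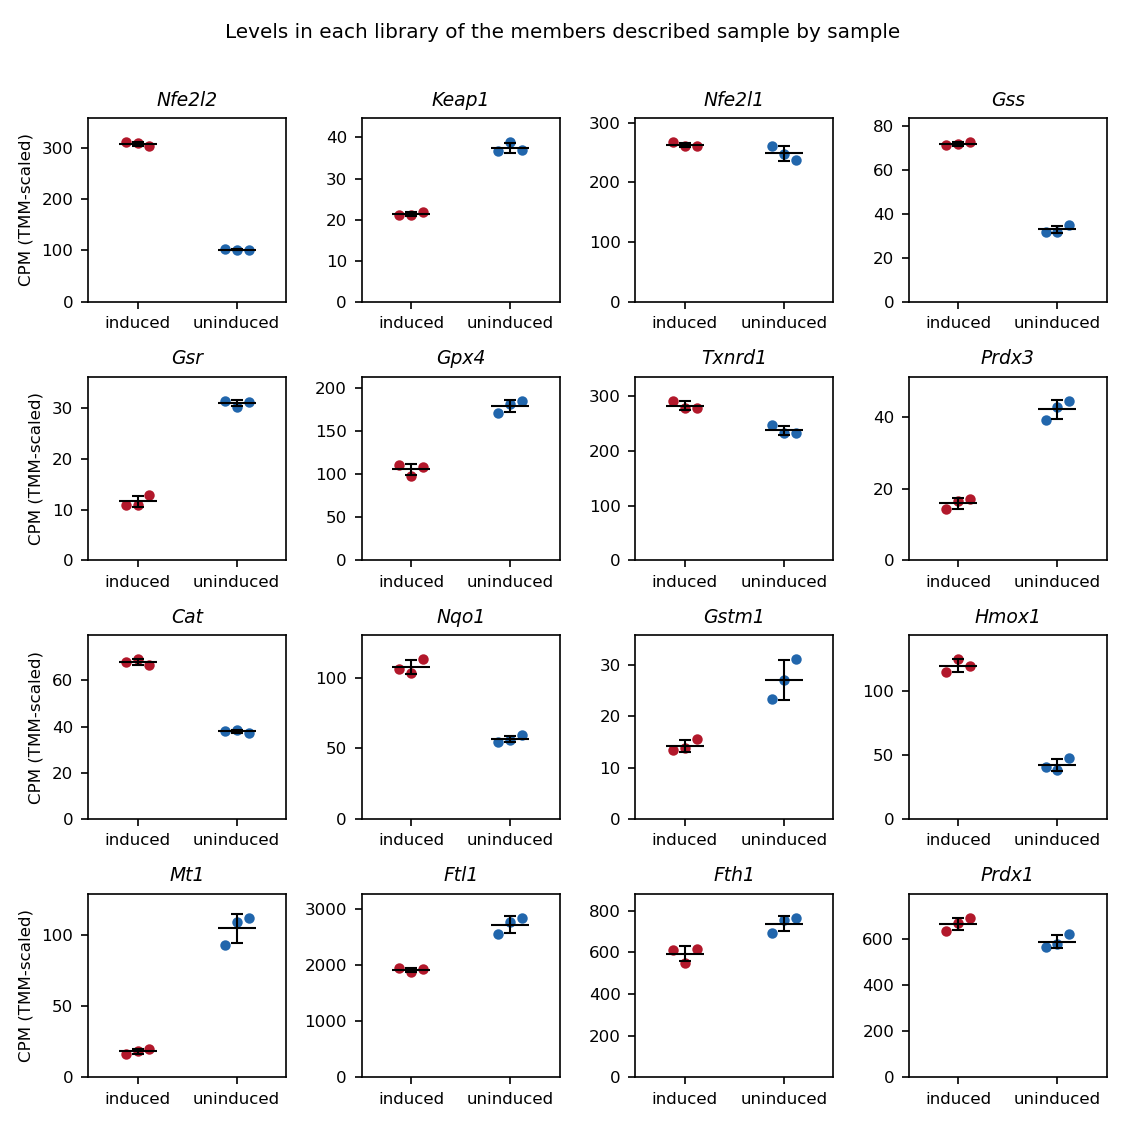
TMM-scaled CPM (y axes, each from 0) of 16 members in the 3 induced (red, left) and 3 uninduced (blue, right) libraries, with mean and SD in black. The groups are separate in every panel except Nfe2l1.

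The genes that supply glutathione were divided. Gclc and Gclm encode the catalytic and the modifier subunit of glutamate-cysteine ligase, the rate-limiting enzyme of glutathione synthesis. Gclc rose by 0.60 ± 0.05 and Gclm fell by 1.29 ± 0.07 on the log2 scale (SE), with edgeR adjusted p-values of 1.2e-11 and 3.4e-14, but Gclc was at -0.36 under library-size scaling. Gss (chr2:155563181-155592810) encodes glutathione synthetase, which adds the last amino acid. It had 71.4, 72.0 and 72.8 CPM in induced and 31.9, 32.1 and 35.04 CPM in uninduced cells. No induced library came near the uninduced range, and the log2 fold change was 1.13 ± 0.05 (SE), with an edgeR adjusted p of 1.3e-15. Under library-size scaling it was only 0.16 (edgeR adjusted p = 0.0063). Exons of Acss2, Gssos1 and Gssos2 on the other strand cover 15.4% of the annotated Gss exon bases, and reads of the 2 strands may not have been separated. Gsr (chr8:33653238-33698162), whose product regenerates reduced glutathione with NADPH, had 10.89, 11 and 12.97 CPM in induced and 31.5, 30.4 and 31.2 CPM in uninduced cells. All induced libraries were below the uninduced ones, a log2 fold change of -1.42 ± 0.08 (SE), with an edgeR adjusted p of 1.8e-14. Slc7a11, the cystine importer that feeds the pathway, fell by 0.17 ± 0.05 on the log2 scale (SE), with an edgeR adjusted p of 0.0013. Its 3 induced libraries spanned 161 to 178 CPM and its 3 uninduced ones 183 to 198 CPM.

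Ratios of counts of a pair of genes within a library do not depend on library scaling, and gene length cancels when the groups are compared. For 4 pairs chosen after their values were seen, the groups did not overlap. The log2 ratio of Nfe2l2 to Keap1 was 3.88, 3.87 and 3.80 in induced and 1.47, 1.39 and 1.46 in uninduced libraries, a difference of 2.41. The log2 ratio of Gclc to Gclm was 2.89, 2.81 and 2.85 in induced and 1.05, 0.855 and 0.954 in uninduced libraries, a difference of 1.89. For Txnrd1 over Gsr, the reductases of thioredoxin and of glutathione, the mean log2 ratio was 4.61 ± 0.167 in induced and 2.94 ± 0.0415 in uninduced libraries (SD, n = 3 each). For Sod1 over Gpx1, which make and remove hydrogen peroxide, it was 1.52 ± 0.0548 in induced and 0.137 ± 0.062 in uninduced libraries (SD, n = 3 each). A two-sided exact permutation test gave p = 0.1 for each of the 4 ratios, also after adjustment over the 4, which is the smallest value that 3 libraries against 3 allow. Each pair set a gene that rose over a gene that fell, both without overlap, so separate groups and this p followed from the choice.

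**Figure D4:**
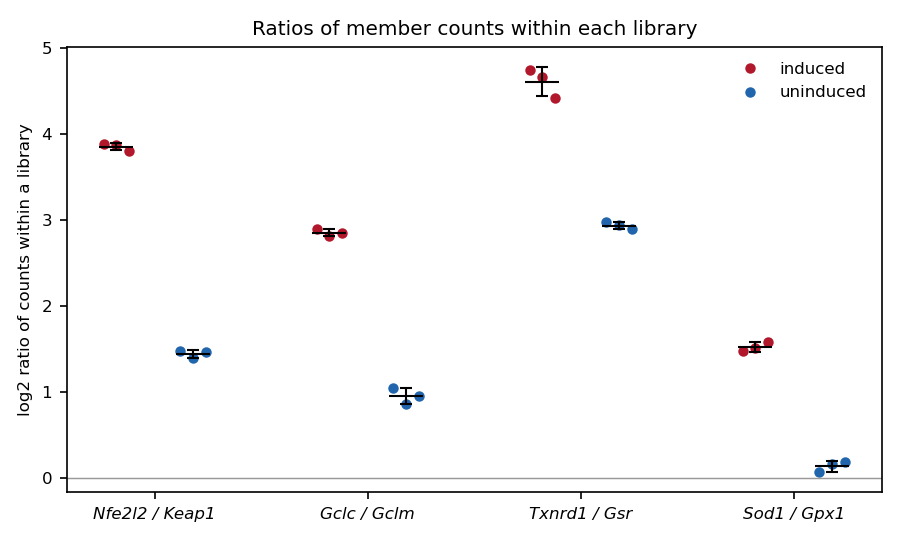
Log2 ratio of the counts of 2 members within each library (y axis) for 4 pairs, with induced libraries in red on the left and uninduced libraries in blue on the right of each pair, and mean and SD in black. The groups are separate in all 4 pairs, which were chosen after their values were seen, with the widest gap, 2.41, for Nfe2l2 over Keap1.

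Both tested glutathione peroxidase genes fell. Gpx4 (chr10:80047166-80056439), whose product reduces lipid peroxides in membranes and guards against ferroptosis, had 110, 98.0 and 109 CPM in induced and 171, 181 and 186 CPM in uninduced cells. The groups were well apart, and the log2 fold change was -0.76 ± 0.05 (SE), with an edgeR adjusted p of 4.0e-13. Gpx1, the abundant cytosolic peroxidase of the family, fell by 0.56 ± 0.04 on the log2 scale (SE), with an edgeR adjusted p of 3.7e-11. Gpx3, the secreted peroxidase, had 2, 1 and 2 counts in induced and 1, 4 and 5 counts in uninduced libraries and was too low to be tested.

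Of the 9 thioredoxin and peroxiredoxin genes, 2 (22.2%) rose, 6 (66.7%) fell and 1 was not called, beside 41.3% higher and 41.2% lower over all tested genes. Txnrd1 (chr10:82833951-82897724), the cytosolic thioredoxin reductase, had 292, 279 and 278 CPM in induced and 248, 233 and 232 CPM in uninduced cells. The groups did not overlap although the difference was small, a log2 fold change of 0.25 ± 0.04 (SE), with an edgeR adjusted p of 6.4e-06, and it turned to -0.71 under library-size scaling. Prdx1, the cytosolic peroxiredoxin and one of the most abundant members, had 638, 670 and 693 CPM in induced and 567, 580 and 621 CPM in uninduced cells. Its induced libraries began just above its highest uninduced one, a log2 fold change of 0.18 ± 0.04 (SE), with an edgeR adjusted p of 0.00067, and it turned to -0.79 under library-size scaling. This call was lost with upper-quartile scaling at 0.03 (edgeR adjusted p = 0.52). The lowest edgeR adjusted p over the alternatives, 6.5e-15, belongs to library-size scaling, where Prdx1 was called lower. The highest, 1.0, comes from a test against a 1.5-fold change. Txn1, thioredoxin itself, was at 353 ± 5.55 CPM in induced and 375 ± 19.4 CPM in uninduced cells (SD, n = 3 each) and was not called (edgeR adjusted p = 0.053). It was called lower at -0.14 without uninduced replicate 1 (edgeR adjusted p = 0.0026, with a range of 1.7e-17 to 1.0 over the alternatives). Txn1 was also called lower with upper-quartile scaling at -0.24 (edgeR adjusted p = 2.5e-05) and without a low-count filter at -0.16 (edgeR adjusted p = 0.00021). The same held with a replicate block and under library-size scaling, which gave the lowest value of that range.

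Prdx3 (chr19:60864066-60874538), which encodes the peroxiredoxin of the mitochondrial matrix, had the largest fall of this group. It had 14.2, 16.6 and 17.1 CPM in induced and 39.3, 42.8 and 44.6 CPM in uninduced cells. Its highest induced library was below its lowest uninduced library by more than 2-fold, and the log2 fold change was -1.40 ± 0.07 (SE), with an edgeR adjusted p of 1.2e-14. Cytosolic Prdx2 fell by 0.59 ± 0.04 and Prdx4 of the endoplasmic reticulum by 0.49 ± 0.06 on the log2 scale (SE). Prdx5, found in mitochondria and peroxisomes, fell by 0.43 ± 0.06, and Prdx6, which uses glutathione, by 0.13 ± 0.04 (SE). Other-strand exons cover 19.1% of the annotated exon bases of Prdx5 (Trmt112) and 11.5% of those of Prdx2 (Junb and Rnaseh2a). Reads of the 2 strands may not have been separated there. Srxn1, whose product repairs overoxidised peroxiredoxins, fell by 0.14 ± 0.05 on the log2 scale (SE), with an edgeR adjusted p of 0.018. Its call was lost without induced replicate 1 (edgeR adjusted p = 0.057), without induced replicate 2 (edgeR adjusted p = 0.059) and with DESeq2 (adjusted p = 0.078). The range over the alternatives was 7.2e-16, under library-size scaling, to 1.0, in the test against a 1.5-fold change.

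The 3 tested genes for superoxide dismutases and catalase all rose with TMM scaling, but all were below 0 under library-size scaling. Cat (chr2:103453904-103485153), the peroxisomal enzyme that splits hydrogen peroxide, had 67.9, 69.1 and 66.8 CPM in induced and 37.9, 38.4 and 37.4 CPM in uninduced cells. The libraries of each group lay close together and far from the other group, a log2 fold change of 0.84 ± 0.05 (SE), with an edgeR adjusted p of 1.2e-13. Sod1, the copper-zinc enzyme of the cytosol, rose to 271 ± 8.72 CPM in induced cells, against 153 ± 9.72 CPM in uninduced cells (SD, n = 3 each), a log2 fold change of 0.82 ± 0.05 (SE). Sod2, the manganese enzyme of mitochondria, rose by 0.40 ± 0.05 on the log2 scale (SE). Under library-size scaling Cat was at -0.12, Sod1 at -0.14 and Sod2 at -0.56. Sod3, the extracellular enzyme, had 3, 0 and 5 counts in induced and 11, 4 and 10 counts in uninduced libraries and was not tested.

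Among quinone reductase and glutathione transferase genes, 3 (37.5%) rose, 4 (50%) fell and 1 was not called, beside 41.3% higher and 41.2% lower over all tested genes. Nqo1 (chr8:107388225-107403205), a classical NRF2 target that reduces quinones, had 106, 103 and 113 CPM in induced and 54.8, 56.1 and 59.1 CPM in uninduced cells. All induced libraries exceeded all uninduced ones, a log2 fold change of 0.93 ± 0.05 (SE), with an edgeR adjusted p of 1.2e-14, but the value was -0.04 under library-size scaling. Gstm1 (chr3:108012250-108017973), a cytosolic transferase of the mu class, had 13.3, 13.8 and 15.5 CPM in induced and 23.3, 27.1 and 31.1 CPM in uninduced cells. Its uninduced libraries were spread more widely, but none reached the induced range, and the log2 fold change was -0.93 ± 0.10 (SE), with an edgeR adjusted p of 1.1e-07. Gsta4, which conjugates the lipid peroxidation product 4-hydroxynonenal, fell by 0.76 ± 0.08, the microsomal Mgst3 by 0.65 ± 0.10 and Gstp1 by 0.46 ± 0.05 on the log2 scale (SE). Gsto1, of the omega class, rose by 0.26 ± 0.05 on the log2 scale (SE), or was at -0.70 under library-size scaling, and Gstm2 was not called at -0.46 ± 0.23 (SE), with an edgeR adjusted p of 0.067. Without uninduced replicate 1 Gstm2 was called lower at -0.62 (edgeR adjusted p = 0.016, with a range of 2.1e-06 to 0.77 over the alternatives). Mgst1 was called higher at 0.59 ± 0.22 (SE), with an edgeR adjusted p of 0.018, from 47, 28 and 32 counts in induced and 45, 38 and 50 counts in uninduced libraries. Its highest value was in induced replicate 1, and without that library it was at 0.38 (edgeR adjusted p = 0.18), while library-size scaling put it at -0.37. Without uninduced replicate 2 it was not called either (edgeR adjusted p = 0.069), with a range of 0.011 to 0.46 over the alternatives. The mu and pi transferases have near-identical copies, so reads may have been divided between Gstm or Gstp genes and these values are uncertain.

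Haem and metal genes held both the largest fall and one of the largest rises. Hmox1 (chr8:75093618-75100593), which encodes inducible haem oxygenase, had 115, 124 and 119 CPM in induced and 40.5, 38.5 and 47.6 CPM in uninduced cells. The groups were far apart, a log2 fold change of 1.502 ± 0.064 (SE), with an edgeR adjusted p of 8.3e-14. Ferritin stores the iron that haem breakdown releases. Ftl1, its light chain gene and the most abundant member, had 1940, 1872 and 1935 CPM in induced and 2558, 2762 and 2840 CPM in uninduced cells. Fth1, the heavy chain gene, had 611, 552 and 617 CPM in induced and 695, 753 and 766 CPM in uninduced cells. Both ferritin genes were lower in every induced library, with log2 fold changes of -0.51 ± 0.04 for Ftl1 and -0.31 ± 0.05 for Fth1 (SE). Exons of other genes cover 34.6% of the annotated Ftl1 exon bases and ferritin genes have processed copies elsewhere in the genome, so these levels may include or lack shared reads.

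Metallothioneins are small cysteine-rich proteins that bind zinc and copper. Mt1 (chr8:94178883-94180327) had 16.6, 18.6 and 19.9 CPM in induced and 93.2, 109 and 112 CPM in uninduced cells. No tested member fell farther than Mt1, at a log2 fold change of -2.51 ± 0.08 (SE), with an edgeR adjusted p of 1.5e-15, and it was between -3.47 and -2.44 in the alternatives. Its neighbour Mt2 (chr8:94172618-94173567) had 23.1, 23.4 and 23.6 CPM in induced and 60.5, 65.1 and 72.1 CPM in uninduced cells, also without overlap. Its log2 fold change was -1.495 ± 0.0659 (SE), with an edgeR adjusted p of 4.1e-16. Exons of Gm45774 on the other strand cover 73.5% of the annotated Mt2 exon bases, so reads of both may have been counted together.

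Metallothionein genes are known to be switched on by the zinc sensor MTF1 through metal response elements. The 250 bases before the start of Mt2 are shown because this pair had the largest falls, with capitals marking the letters TGCNCNC on either strand.
Mt2 (chr8:94172368-94172617, plus strand): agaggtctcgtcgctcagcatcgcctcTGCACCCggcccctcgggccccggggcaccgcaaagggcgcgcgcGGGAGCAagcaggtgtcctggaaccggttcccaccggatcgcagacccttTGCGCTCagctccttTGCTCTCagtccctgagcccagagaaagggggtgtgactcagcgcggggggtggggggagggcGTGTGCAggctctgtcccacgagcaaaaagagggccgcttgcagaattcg
The stretch also lies in an exon of Gm45774 on the other strand. It holds 5 matches, and the match to the antioxidant response element does not overlap them. N stands for any base, so these matches are runs of letters and were not shown to be elements that MTF1 binds. At least 1 match to TGCNCNC was found in 51.0% of all windows, 39.5% of member windows (17 of 43), and 3 or more in 7.1% of all windows. For Mt1, which fell farther than Mt2, a window at chr8:94178839-94179138 held 3 matches, of which 1 lay before its transcript start. That start and the matches lie inside the Mt1 gene span given above, whereas the Mt2 stretch ends right before its gene. The windows of the pair are therefore not placed alike. Mtf1 itself rose by 1.19 ± 0.06 on the log2 scale (SE), with an edgeR adjusted p of 3.9e-15, while Mt3 and Mt4 had no count in any library and Slc30a1, a zinc exporter, was not called at -0.11 ± 0.08 (SE), with an edgeR adjusted p of 0.21.

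Within a group, members varied little. Their coefficient of variation over 3 libraries had a median of 3.91% in induced cells, from 0.404% for Gstp1 to 23.4% for Mgst1, and 5.09% in uninduced cells, from 0.205% for Nfe2l2 to 21% for Gstm2. Uninduced replicate 1 was the lowest uninduced library for 26 of the 35 tested members, whereas it was lowest for 36.6% of all tested genes. Without it, 13 members were called higher and 22 lower.

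Other genes of the pathway were taken from a list of 104, of which 79 were tested. Of these, 28 (35.4%) were called higher, 33 (41.8%) lower and 18 not called, beside 41.3% higher and 41.2% lower over all tested genes, with a median log2 fold change of -0.11, and library-size scaling called 9 higher and 65 lower. Upper-quartile scaling called 25 of them higher and 39 lower. In the class of NRF2 partners and turnover genes, 9 of 14 tested genes (64.3%) were higher and 2 (14.3%) lower. The shares over all tested genes were 41.3% and 41.2%. This class also lists the related factor gene Nfe2l3, and Ddi2 and Ngly1, which act on NRF1, so its count is not of NRF2 genes alone. Of these, Nfe2l3 and Ddi2 were called higher and Ngly1 was not called. Cul3, the scaffold of the ligase that ubiquitinates NRF2, rose to 309 ± 12.8 CPM in induced cells, against 107 ± 5.93 CPM in uninduced cells (SD, n = 3 each), a log2 fold change of 1.53 ± 0.05 (SE), with an edgeR adjusted p of 1.8e-19, while its RING partner Rbx1 fell by 0.76 ± 0.05. The small MAF genes Mafk and Maff rose by 1.23 ± 0.06 and 1.00 ± 0.06, and Mafg was not called at -0.07 ± 0.08 (SE), with an edgeR adjusted p of 0.39. Bach1, a haem-regulated repressor of NRF2 target genes, rose by 1.10 ± 0.07, its relative Bach2 fell by 1.05 ± 0.15, and Sqstm1, whose product p62 captures KEAP1, rose by 0.75 ± 0.04 on the log2 scale (SE).

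Of the 8 genes listed for NADPH supply, 3 (37.5%) rose and 5 (62.5%) fell, beside 41.3% higher and 41.2% lower over all tested genes. G6pdx, Pgd and Tkt of the pentose phosphate pathway rose by 0.58 ± 0.04, 0.34 ± 0.04 and 0.63 ± 0.05 on the log2 scale (SE). Taldo1 of the same pathway fell by 0.11 ± 0.05, Me1 by 0.26 ± 0.05 and Idh1 by 0.36 ± 0.05 on the log2 scale (SE). Idh2 and Nnt, which make NADPH in mitochondria, fell by 0.79 ± 0.05 and 0.44 ± 0.05 on the log2 scale (SE). Txn2 and Txnrd2, the mitochondrial thioredoxin and its reductase, fell by 0.64 ± 0.04 and 0.60 ± 0.10 on the log2 scale (SE), named here after their values were seen because they serve Prdx3. Slc3a2, which pairs with Slc7a11 in the cystine importer, rose by 0.64 ± 0.04, and Chac1, which degrades glutathione, rose by 1.10 ± 0.06 on the log2 scale (SE). Among 15 tested iron, haem and metal genes, 6 (40%) were higher and 7 (46.7%) lower, near the shares of all tested genes. Among 14 other transferases and detoxification genes 1 (7.14%) was higher and 7 (50%) were lower.

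The largest rises among these other genes, at a mean of 1 CPM or more, were in the sestrins Sesn2 and Sesn3, stress-induced regulators of mTORC1 signalling. Sesn2 was at 185 ± 11.6 CPM in induced and 23.0 ± 0.972 CPM in uninduced cells, and Sesn3 at 54.7 ± 2.99 CPM in induced and 13.2 ± 2.10 CPM in uninduced cells (SD, n = 3 each). Their log2 fold changes were 3.01 ± 0.05 and 2.04 ± 0.09 (SE), whereas Sesn1 fell by 0.80 ± 0.08 on the log2 scale. Txnip, which encodes an inhibitor of thioredoxin, rose by 1.79 ± 0.13 on the log2 scale (SE), at 9.46 ± 1.17 CPM in induced and 2.71 ± 0.283 CPM in uninduced cells (SD, n = 3 each). Msra and Msrb3 encode enzymes that repair oxidised methionine. They moved in opposite directions, Msra at 1.75 ± 0.10 and Msrb3 at -1.83 ± 0.06 (SE). The largest fall at that level was in Steap3, an endosomal ferric reductase of the transferrin cycle, at 3.58 ± 0.304 CPM in induced and 23.9 ± 0.915 CPM in uninduced cells (SD, n = 3 each), a log2 fold change of -2.74 ± 0.10 (SE), with an edgeR adjusted p of 7.4e-18. Gpx8, a peroxidase of the endoplasmic reticulum, fell by 1.71 ± 0.06, Abcc4, a multidrug exporter, by 1.30 ± 0.11, and the quinone reductase gene Nqo2 by 1.27 ± 0.10 on the log2 scale (SE). Nqo1 and Nqo2 thus moved in opposite directions with TMM scaling, and with library size alone Nqo2 was at -2.24.

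**Figure D5:**
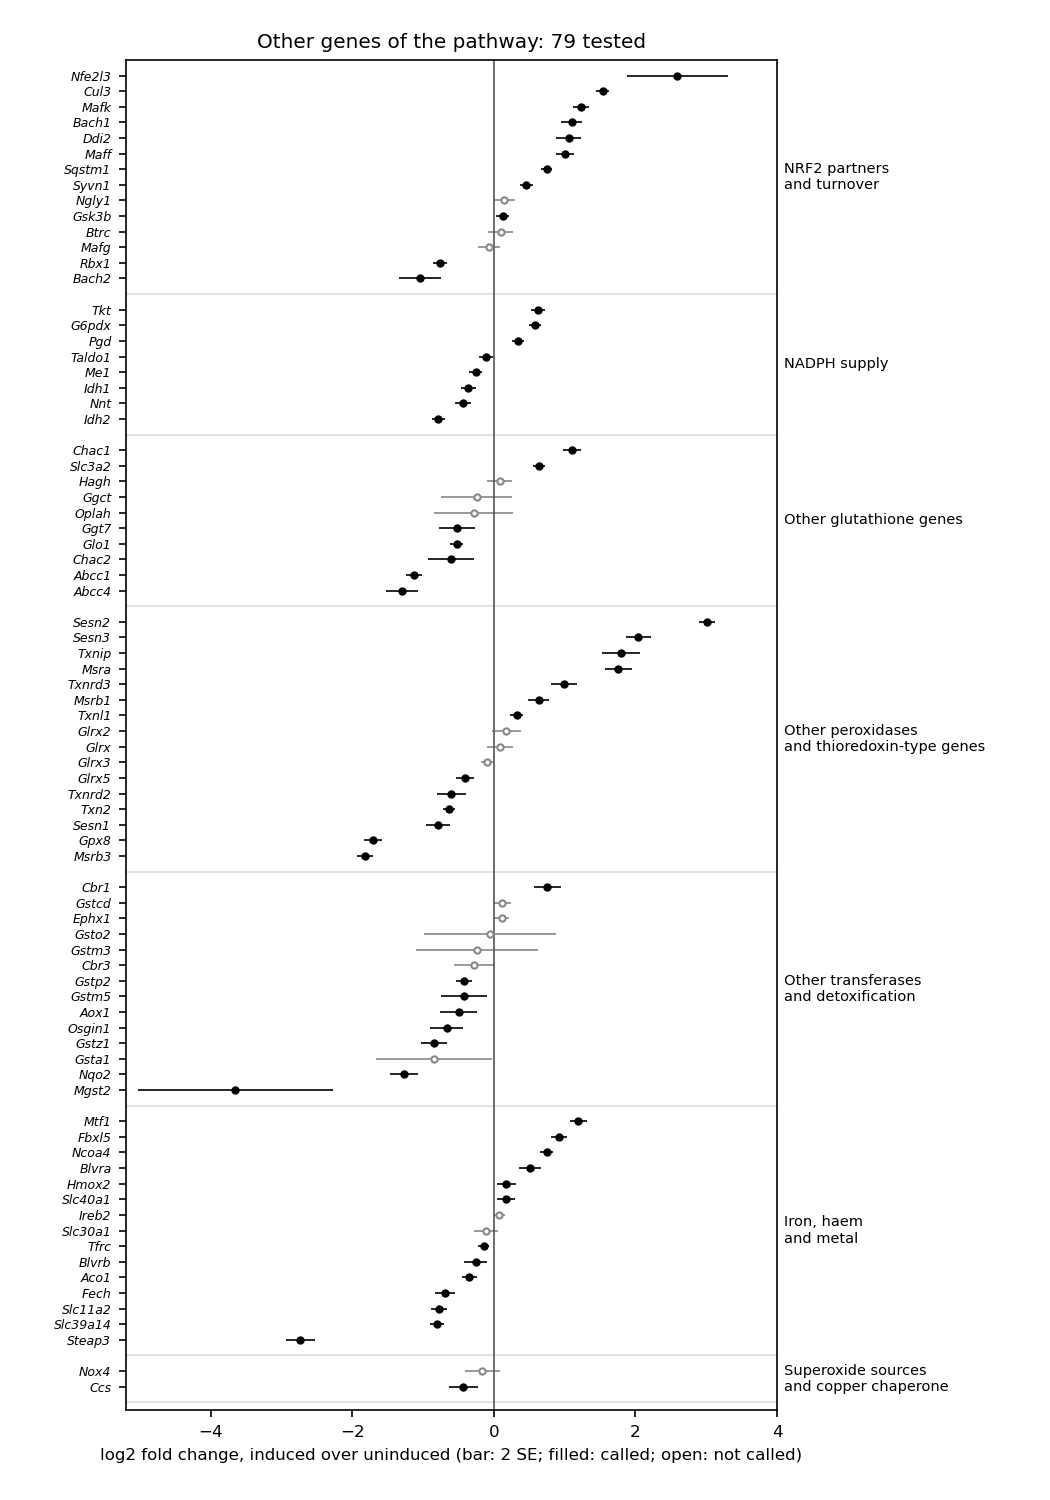
Log2 fold change (x axis, induced over uninduced) of 79 other tested genes of the pathway by class. Filled circles are called and open ones not called, and bars span 2 SE either side. Sesn2 lies farthest right at 3.01. In the class of NRF2 partners and turnover genes, 11 of 14 tested genes lie right of 0, and 9 were called higher. That class also lists Nfe2l3, Ddi2 and Ngly1. Over all 12969 tested genes, 6415 lie above 0 and 41.3% were called higher.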

How the data were processed

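The labels give the molecule as polyadenylated RNA and name a TruSeq kit for the RNA-seq libraries. The submitters' processing notes name CASAVA, TopHat2 2.0.12, Bowtie2 2.2.3 and the build mm10. The authors deposited raw counts of reads per Entrez gene. For the read counter, its strand setting and its treatment of multiply mapped reads, the answer is not given in the sources used here. Groups were taken from the sample titles.

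Counts were analysed in R 4.3.3. Genes passing filterByExpr were scaled with TMM and compared by the quasi-likelihood test of edgeR 4.0.16 (robust glmQLFit, then glmQLFTest) on group alone. Benjamini-Hochberg adjustment covered the 12969 tested genes, and calls needed an adjusted p under 0.05. SEs came from dividing each log2 fold change by the root of its F statistic. The test was checked on simulated counts in which few genes were changed, in both directions. That check has no shift of most genes as seen here, so it does not bear on the choice of scaling. Alternatives included DESeq2 1.42.0 and limma-voom (limma 3.58.1), other scalings and filters, and each library left out.

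Members, roles and gene lists were chosen with earlier results of these data known. Values of every library are given for the 3 regulators, for the largest called rise and fall without overlap in each role, and for the 3 most abundant members. Of the other pathway genes the 5 largest rises and 5 largest falls at a mean of 1 CPM or more are named, and further ones were chosen after their values were seen. Coordinates and promoter windows are from RefSeq on GRCm38.p6, the assembly that mm10 also names, and exon lengths and overlaps from GENCODE M21. Pairs of replicates all differed by more than sampling noise, with chi-square per degree of freedom between 2.46 and 7.09.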

Additional observations from a re-analysis of the deposited data

How the results depend on the processing

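Library-size scaling placed the median of all genes at -0.97. Under it 1977 of all genes were called higher and 9949 lower, 3 members higher, and 9 other pathway genes higher and 65 lower, with a member median of -1.28. Values that changed sign there were Nfe2l1 at -0.88, Gclc at -0.36, Txnrd1 at -0.71, Prdx1 at -0.79, Sod1 at -0.14, Sod2 at -0.56, Cat at -0.12, Gsto1 at -0.70, Mgst1 at -0.37 and Nqo1 at -0.0376. The cause was not tested beyond the shift of all genes. With upper-quartile scaling the member median was -0.46. A glmTreat test against a 1.5-fold change, which asks for a larger effect, called 3039 of all genes higher and 2510 lower, 6 members higher and 9 lower, and 17 other pathway genes higher and 14 lower. Leaving out 1 library at a time gave 11 to 13 members higher, 19 to 22 lower and medians of -0.39 to -0.23. Of the other alternatives, upper-quartile scaling changed the sign of 1 tested member, Nfe2l1, which was not called there at -0.0641. Same-numbered libraries of the 2 groups deviated together at r = 0.0787, 0.00739 and 0.0615, so the numbers are not taken to pair the cultures, although each library correlated best with its own number, a hint from the data and not the design. With a replicate block, 13 members were higher and 21 lower, with Nfe2l1 and Txn1 added to the calls, and 5411 of all genes were higher and 5402 lower. Each gene's depth limits it: Gpx3 and Sod3 were too low to test, and a floor of 3 counts in 1 library is 0.171 to 0.194 CPM in induced and 0.0898 to 0.0983 CPM in uninduced libraries.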
